A study of Mus musculus with 9 samples.

Results

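The 10 genes described here, Nrip3, Plek2, Ndrg2, Cd36, Hbq1b, P3h2, Nbea, Nmnat2, Cd59a and Clca3a1, were chosen by their mean log2 signal, which in ERG leukemia lay far above that in both kinds of wild type bone marrow. They are 10 of the 19938 genes measured, and each was read by 1 probe set, meaning several short probes aimed at 1 transcript. The choice rested on the measured leukemia signal itself, so the leukemia differences of these genes are given as a description, without a test. Signal was measured on 9 Affymetrix whole-transcript arrays of RNA from femoral marrow of C57BL6 mice. The leukemia group was whole marrow of 3 ERG transgenic animals with myeloid leukemia, taken once signs of disease appeared. The lineage-negative (Lin-) group was marrow of 9 wild type mice, depleted of cells with mature blood cell markers and pooled into 3 samples of 3 mice. The whole marrow group was undepleted marrow of 3 further wild type mice. The sources used here do not give the species of the transgene, the promoter that drives it or the ages of the mice.

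The 10 genes have little in common in what they encode. Cd59a, Cd36 and Clca3a1 encode proteins of the cell surface or secreted from it, Plek2 and Hbq1b belong to the biology of red cells, P3h2 and Nmnat2 encode enzymes, and Nbea, Ndrg2 and Nrip3 encode intracellular proteins. ERG, an ETS transcription factor, is needed by blood stem cells, and leukemias driven by it can carry features of red cell and platelet precursors. Whole marrow is mostly granulocytes, lymphocytes and red cell precursors, whereas lineage depletion enriches stem cells and progenitors. The Lin- pools here also held signal of red cell, megakaryocyte and platelet markers, as given below.

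The upstream sequences of 3 genes are shown because each bears on a pair of near copies described below. They run 5′ to 3′ over the 250 bases before the transcript start in RefSeq (GRCm38.p6). The Clca3a1 window is chr3:144760978-144761227 on the minus strand, and its capitals mark letters of the GATA motif (TGATAA or AGATAA) and the KLF motif (CCNCNCCC), searched on both strands. The theta globin windows are chr11:32286714-32286963 for Hbq1b and chr11:32299819-32300068 for Hbq1a, both on the plus strand, and their capitals mark the 11 bases at which the copies differ.
Clca3a1: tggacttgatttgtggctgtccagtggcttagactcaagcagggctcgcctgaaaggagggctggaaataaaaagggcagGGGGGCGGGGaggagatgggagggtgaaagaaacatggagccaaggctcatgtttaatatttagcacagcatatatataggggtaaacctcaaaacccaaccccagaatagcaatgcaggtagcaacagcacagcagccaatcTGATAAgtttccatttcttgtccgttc
Hbq1b: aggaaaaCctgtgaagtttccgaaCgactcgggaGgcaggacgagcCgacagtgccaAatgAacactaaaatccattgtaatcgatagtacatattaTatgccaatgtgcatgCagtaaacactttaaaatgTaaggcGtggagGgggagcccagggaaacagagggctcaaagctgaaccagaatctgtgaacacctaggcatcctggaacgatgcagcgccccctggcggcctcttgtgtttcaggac
Hbq1a: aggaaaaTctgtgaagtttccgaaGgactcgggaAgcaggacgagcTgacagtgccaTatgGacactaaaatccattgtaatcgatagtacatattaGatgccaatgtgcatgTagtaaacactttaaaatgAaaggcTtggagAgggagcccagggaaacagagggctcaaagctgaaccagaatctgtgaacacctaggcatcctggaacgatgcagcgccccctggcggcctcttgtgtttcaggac

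The windows of Hbq1b and Hbq1a were identical at 239 of 250 bases (95.6%) without a gap, and only 3 of the differing bases lay in the 120 nearest the start. A gapped alignment of the windows of Clca3a1 and its neighbour Clca3a2 had 144 identical bases of 211 aligned and 78 gap positions. Unrelated windows were not aligned for comparison, so no likeness is read from that. A GATA motif stood 27 to 22 bases before the start of Clca3a1, and overlapping KLF motifs stood 170 to 161 bases before it. Clca3a2 had a GATA motif too, 164 to 159 bases before its start, and 129 bases of its window lie inside the annotated span of the gene. Of the 10 genes 8 had a window in the table, namely all but Nrip3 and P3h2, and with 3 for Ndrg2 they had 10 windows. The GATA motif was found in 1 of these 10 windows, against 16.6% of the 32851 RefSeq windows. The ETS motif (AGGAAG) was found in 3 of the 10, 1 each of Nmnat2, Plek2 and Ndrg2, against 29.5% of windows. The KLF motif occurred in 7 of the 10 windows, or 5 of the 8 genes, against 45.9% of windows. It was in all 3 windows of Ndrg2, where those at chr14:51913489-51913738 and chr14:51913330-51913579 overlap and share a site. The STAT5 motif (TTCNNNGAA) occurred in 0 of the 10, against 7.02% of windows. These matches describe letters in a window and no binding was measured. The windows of Nmnat2 and Cd36 and part of those of Plek2, Cd59a, Nbea and Ndrg2 lie inside the annotated span of the gene.

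Array medians ran from 32.3 to 34.4 on the linear intensity scale, and pairs of arrays within a group had r from 0.971 to 0.995 over genes. The mouse Erg probe set had a mean intensity of 82.8 in the leukemias, 111.6 in Lin- marrow and 156.0 in whole marrow. Since the species of the transgene is not given, whether this probe set reads it is not known. Whole marrow held signal of mature neutrophil markers at a summed intensity of 38399 to 44923, against 648 to 2040 in the Lin- pools, so the depletion is visible. In bulk marrow, fewer cells of a type and less RNA per cell cannot be told apart. All 10 genes had every leukemia array above every wild type array, which held for 470 of 19938 genes (2.36%); since the leukemia signal chose the genes, nothing is read from that count. By limma, 24.5% of all genes passed in leukemia against whole marrow and 8.69% against Lin- marrow, contrasts that the choice used.

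**Figure D1:**
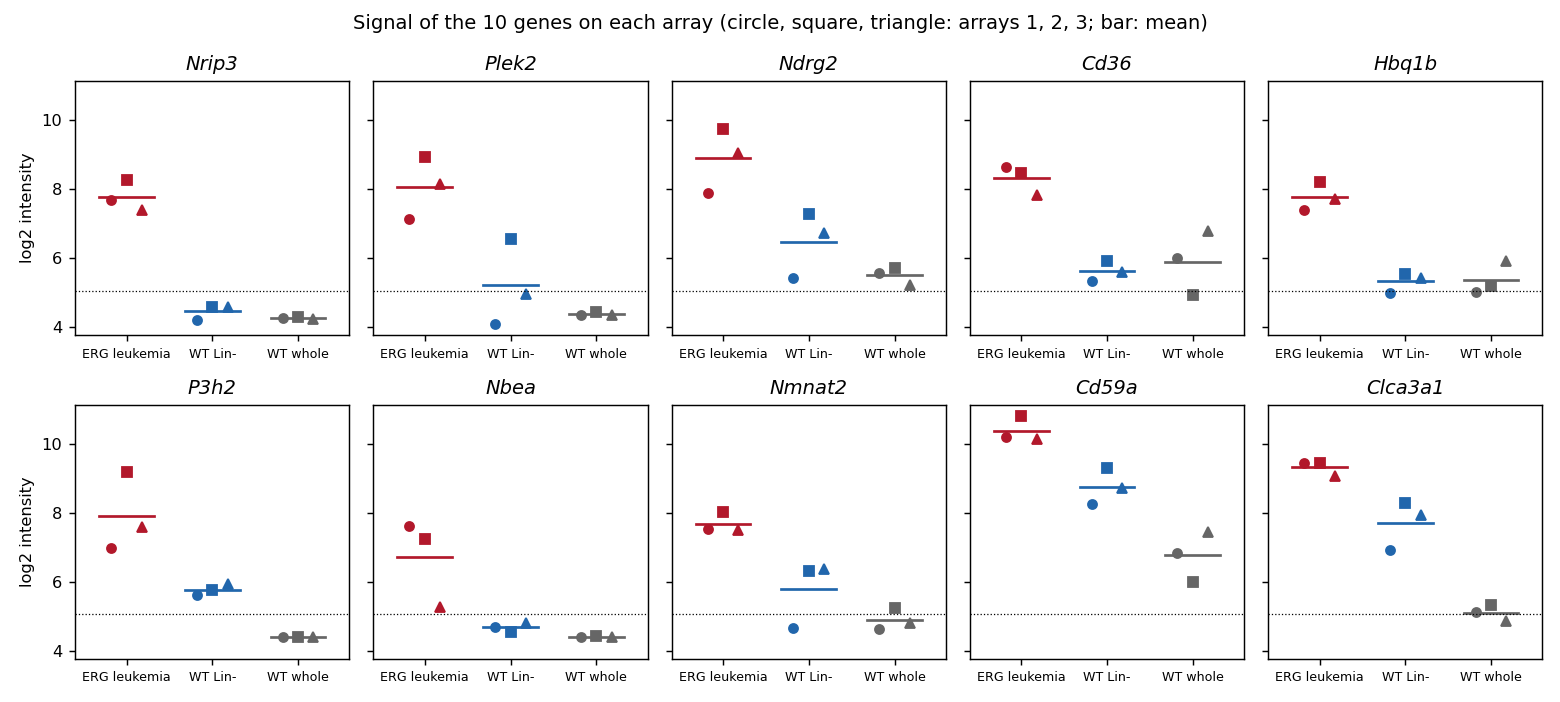
Log2 intensity of the 10 genes on each array, with ERG leukemia, wild type Lin- and wild type whole marrow from left to right. Symbols mark arrays 1, 2 and 3 of a group, bars mark the group mean, and the dotted line is the median of all probe sets (log2 5.06). In every panel the 3 leukemia arrays lie above all 6 wild type arrays, by least in Nbea.

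Cd59a encodes a membrane protein held by a lipid anchor that stops complement from forming pores in the cell's own membrane, and red cells depend on such protection. Its intensity was 1183.0, 1777.1 and 1124.9 in leukemias 1, 2 and 3, against 309.4, 631.4 and 417.4 in Lin- pools 1, 2 and 3, and against 115.2, 64.5 and 174.7 in whole marrow arrays 1, 2 and 3. The 3 groups form a staircase without overlap. The mean was 12.2-fold higher in leukemia than in whole marrow (log2 difference 3.61 ± 0.38, standard error) and 3.07-fold higher than in Lin- marrow (1.62 ± 0.38).

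Clca3a1 encodes a protein of the CLCA family, which modulates calcium-activated chloride currents and in mice marks lymphatic endothelium. Intensities were 703.1, 703.0 and 539.7 in the leukemias, against 120.9, 310.9 and 245.0 in the Lin- pools and 34.7, 40.1 and 29.3 in whole marrow. It showed the same staircase, with the leukemias closest together of the 10 genes (log2 SD 0.22, n = 3). Leukemia signal was 18.7-fold above whole marrow (4.23 ± 0.31) and 3.07-fold above Lin- marrow (1.62 ± 0.31). Summed intensities of 12 endothelial markers were 526 to 655 in the leukemias, 877 to 1151 in the Lin- pools and 444 to 574 in whole marrow. Eng and Pecam1 weigh most in these sums, with means of 178.7, 478.7 and 95.1 and of 168.6, 216.0 and 148.9 in that order. The sums therefore say little about the dimmer markers. In all 3 groups 5 of the 12 lay below the array median of 33.4, among them Prox1 and Flt4 with group means from 15.1 to 16.9. Lyve1 had means of 43.4, 41.1 and 68.5. The part of endothelial cells in the Clca3a1 signal was not tested.

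Cd36 encodes a scavenger receptor that takes up long-chain fatty acids and oxidised lipids and is carried by platelets, macrophages, endothelium and fat cells, and in humans also by red cell progenitors. The leukemias read 398.2, 356.3 and 226.7, against 40.9, 60.8 and 48.8 in the Lin- pools and 64.1, 30.7 and 109.9 in whole marrow. The wild type groups overlapped each other, and whole marrow spread most of the 3 groups (log2 SD 0.92 against 0.43 in leukemia). The log2 difference was 2.41 ± 0.42 against whole marrow (5.3-fold) and 2.68 ± 0.42 against Lin- marrow (6.42-fold). Over the other cells that carry CD36, summed marker intensities in leukemias, Lin- pools and whole marrow ran from 990 to 3657, 6911 to 11748 and 2811 to 3966 for 11 megakaryocyte and platelet genes. In the wild type groups Ppbp weighs most in these sums, with means of 124.2, 4196.9 and 1968.3 in that order. The genes of this list went both ways against whole marrow. Gp5 rose there (2.95 ± 0.28, limma adjusted p = 0.000553) and 3 genes fell, with a median of 0.12. The count that rose was 1, and from 1 to 3 with 1 array left out. Over all genes 14.6% were higher and 9.93% lower against whole marrow, and 2.95% and 5.74% against Lin- marrow. Monocyte and macrophage markers, 12 genes, ran from 1513 to 4080, from 604 to 1103 and from 2377 to 3576 in the same order. Leukemia 2 held the 1513, beside 3811 and 4080 in leukemias 1 and 3. Of these genes 0 rose and 2 fell against whole marrow, and 6 rose and 0 fell against Lin- marrow. With 1 array left out, from 0 to 4 and from 3 to 9 rose. Markers of fat cells, 8 genes of which 5 lay below the array median in all 3 groups, ran from 239 to 356, from 221 to 222 and from 283 to 336. Leukemia 2 was again the lowest leukemia, and Fabp4 read 121.1, 26.8 and 128.6 in leukemias 1, 2 and 3. The part of these cells in the Cd36 signal was not tested.

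Plek2 encodes pleckstrin-2, which binds membrane phosphoinositides and the actin skeleton and is needed in late red cell development, where JAK2 signalling induces it. Its intensities were 141.6, 487.5 and 283.0 in the leukemias, 17.2, 94.5 and 31.3 in the Lin- pools and 20.4, 21.9 and 20.7 in whole marrow. Whole marrow and 2 of the 3 pools lay below the median of all probe sets, while Lin- pool 2 stood well apart from the other pools. The leukemia mean was at least 12.8-fold above whole marrow (log2 difference 3.68 ± 0.61) and 7.27-fold above Lin- marrow (2.86 ± 0.61), a size limited by background in those 2 pools. Without Lin- pool 2 the difference from Lin- marrow was 3.54 on the log2 scale. Where a wild type mean lies below 33.4, as it does in whole marrow for Plek2, Nrip3, P3h2, Nbea and Nmnat2 and in Lin- marrow for Nrip3 and Nbea, background limits the size and the fold is a lower bound.

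Hbq1b encodes a theta globin, a chain of the alpha globin cluster without a settled function. Leukemias 1, 2 and 3 had intensities of 170.5, 293.2 and 212.6, the Lin- pools 32, 46.9 and 43.5, and the whole marrow arrays 32.4, 36.5 and 60.6. Both wild type groups lay close to the array median and overlapped, and the leukemias lay clear of both. The excess was alike against whole marrow (log2 difference 2.40 ± 0.28, 5.29-fold) and Lin- marrow (2.45 ± 0.28, 5.46-fold).

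P3h2 encodes a prolyl 3-hydroxylase of the endoplasmic reticulum that modifies collagen chains, those of basement membranes above all. It read 127.0, 583.5 and 190.7 in the leukemias, 48.8, 54.5 and 61.4 in the Lin- pools and 21.2, 21.5 and 21.2 in whole marrow. Leukemia 2 was 4.59-fold above leukemia 1, while the wild type arrays hardly spread. Mean signal was at least 11.4-fold higher in leukemia than in whole marrow (log2 difference 3.51 ± 0.46) and 4.42-fold higher than in Lin- marrow (2.15 ± 0.46). Without leukemia 2 these differences were 2.87 and 1.51 on the log2 scale.

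Nmnat2 encodes an enzyme that makes NAD from nicotinamide mononucleotide and is best known for keeping axons alive. The leukemias had intensities of 186.1, 259.9 and 182.4, against 25.5, 79.4 and 83.5 in the Lin- pools and 25, 38.4 and 28.1 in whole marrow. Lin- pool 1 lay with whole marrow and the other pools above it. The log2 difference was 2.78 ± 0.42 against whole marrow (at least 6.89-fold) and 1.90 ± 0.42 against Lin- marrow (3.73-fold).

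Nbea encodes neurobeachin, a large BEACH domain scaffold that binds protein kinase A and works in membrane traffic at synapses. Its intensities were 197.6, 151.5 and 38.6 in leukemias 1, 2 and 3, against 26.0, 23.5 and 28.0 in the Lin- pools and 21.1, 21.5 and 21.5 in whole marrow. Leukemia 3 barely cleared the wild type arrays, 1.38-fold above the highest of them, and leukemia 1 was 5.12-fold above leukemia 3. The mean differences of at least 4.91-fold from whole marrow and 4.07-fold from Lin- marrow (log2 2.30 ± 0.50 and 2.03 ± 0.50) therefore rested on leukemias 1 and 2, and without leukemia 3 they were 3.02 and 2.75 on the log2 scale.

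Ndrg2 encodes a member of the NDRG family of hydrolase-like proteins that MYC represses and that has been described as a tumour suppressor. Leukemias 1, 2 and 3 read 235.8, 863.1 and 534.4, the Lin- pools 43.5, 154.0 and 105.3 and whole marrow 47.7, 53.1 and 37.1. The spread within the leukemias (log2 SD 0.95) was close to that among the pools (0.94), and whole marrow was tighter (0.27). Leukemia was 10.5-fold above whole marrow (3.39 ± 0.54) and 5.36-fold above Lin- marrow (2.42 ± 0.54).

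Nrip3, named as an interactor of nuclear receptors, had intensities of 208.3, 311.4 and 167.9 in the leukemias, against 18.7, 23.9 and 24.1 in the Lin- pools and 19.1, 19.6 and 19.0 in whole marrow. All 6 wild type arrays lay below the array median. The lowest leukemia was at least 6.96-fold above the highest wild type array. Mean signal was at least 11.5-fold higher than in whole marrow (log2 difference 3.52 ± 0.20) and at least 10-fold higher than in Lin- marrow (3.33 ± 0.20).

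**Figure D2:**
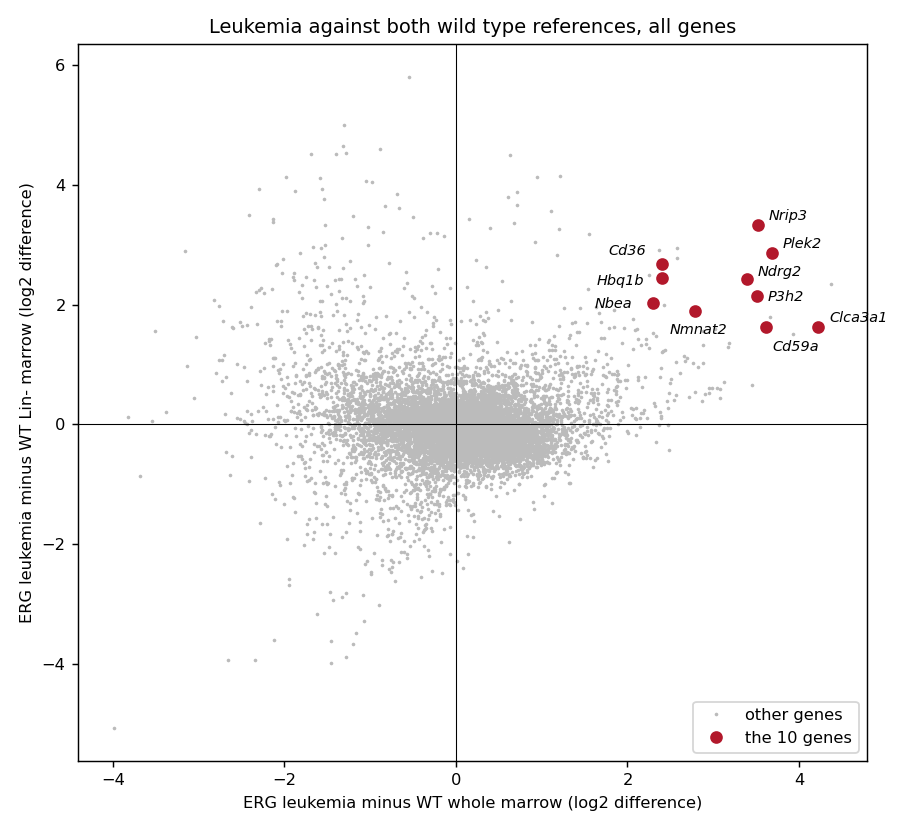
Log2 difference of each of 19938 genes between ERG leukemia and wild type whole marrow (horizontal) and between ERG leukemia and wild type Lin- marrow (vertical). The 10 genes, in red, lie at the upper right, from 2.30 to 4.23 on the horizontal and from 1.62 to 3.33 on the vertical axis. Both axes use the same leukemia arrays.

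The 10 genes are not all of the genes with so large an excess. Ranked by the smaller of the leukemia differences, Nrip3 came 1st, Plek2 2nd and Cd59a and Clca3a1 22nd and 23rd, with 13 other genes at or above the lowest of the 10. The highest of these others were Fcrl5, Adamdec1, Cd300e, Cda and Saa3, with smaller differences of 2.58, 2.57, 2.36, 2.34 and 2.25. In 4 of them the leukemias were split. Fcrl5, an Fc receptor-like gene, read 230.6, 18.4 and 439.1 in leukemias 1, 2 and 3, and Cd300e, a monocyte receptor gene, 388.2, 25.3 and 550.8. Adamdec1 and Saa3 were likewise lowest in leukemia 2, at 27.7 and 51.3. Cda, which encodes cytidine deaminase, had 434.0 in Lin- pool 2, above leukemia 1 at 236.1. Just outside the lowest of the 10 (Clca3a1, 1.62) stood Dusp10 at 1.62 and Hey2 at 1.61.

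Between the wild type references, a contrast that the choice of genes did not use although it shares the wild type arrays, 3 of the 10 genes were higher in Lin- than in whole marrow and 0 were lower. Of all genes 34.7% passed, 21.7% higher and 13.0% lower, by the same test (limma on log2 values, two-sided, Benjamini-Hochberg adjusted p below 0.05), and for 3 of 10 genes no excess over that share is read. Clca3a1 rose 6.09-fold (log2 difference 2.61 ± 0.31, limma adjusted p = 0.000348) and Cd59a 3.98-fold (1.99 ± 0.38, limma adjusted p = 0.00361). P3h2 rose 2.57-fold (1.36 ± 0.46, limma adjusted p = 0.0472). All 3 Lin- pools lay above all whole marrow arrays for 4 of the 10 genes, these 3 and Nbea, against 26.6% of all genes. The P3h2 call was lost without any 1 of the 6 wild type arrays (1.28 to 1.44), without leukemia 3 (1.36) and under both other scalings (1.20 and 1.10), with limma adjusted p-values from 0.0581 to 0.13. With 75th percentile centring the median of all genes stood at -0.194 in this contrast, beside -0.035.

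The other 7 genes did not pass, with log2 differences from -0.28 to 0.97 and limma adjusted p-values from 0.145 to 0.921. Nmnat2 (0.88 ± 0.42), Plek2 (0.82 ± 0.61) and Ndrg2 (0.97 ± 0.54) were pulled apart by their pools, each with Lin- pool 1 lowest. Without that pool Nmnat2 passed at 1.44 (limma adjusted p = 0.0022). Nrip3 (0.20 ± 0.20), Hbq1b (-0.04 ± 0.28) and Cd36 (-0.28 ± 0.42) had estimates within about 1 standard error of 0, and a missed threshold does not show equal levels. Nbea (0.27 ± 0.50) passed only when the leukemia arrays were left out of the fit (limma adjusted p = 0.047). The median of the 10 genes was 0.85, against -0.03 over all genes.

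**Figure D3:**
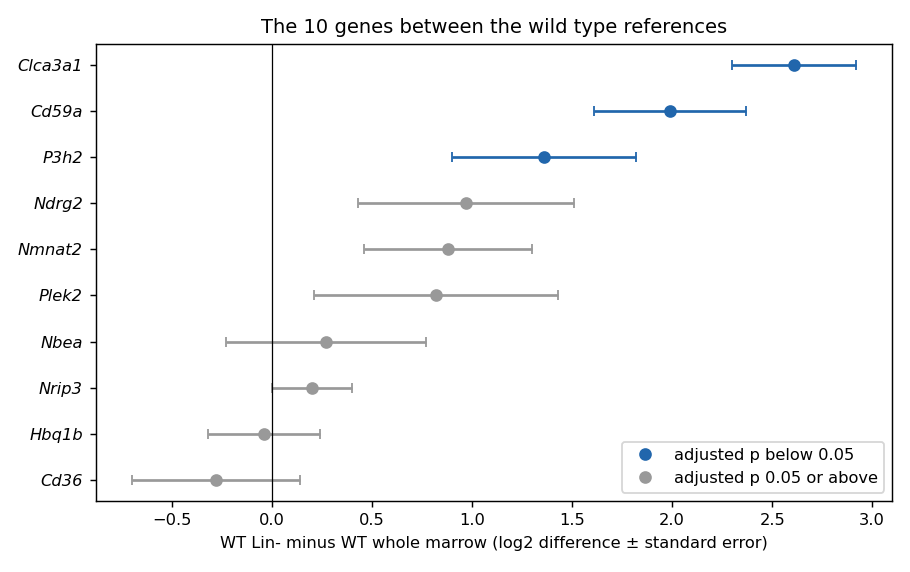
Log2 difference between wild type Lin- and wild type whole marrow for the 10 genes, with the standard error of the limma fit as bars. Clca3a1, Cd59a and P3h2, in blue, passed the adjusted threshold, and Cd36 and Hbq1b lie on the left at -0.28 and -0.04.

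Close relatives of the 10 genes were compared in the same way. Of 24 relatives measured, 7 rose and 2 fell in leukemia against whole marrow, where 14.6% of all genes were higher and 9.93% lower by limma. Against Lin- marrow 2 rose and 1 fell, with 2.95% of all genes higher and 5.74% lower. The counts against whole marrow ran from 6 to 8 higher when 1 array was left out. Those against Lin- marrow were 1 higher without leukemia 3 or Lin- pool 1 or 2, and 2 lower without leukemia 3. The median relative had a log2 difference of 0.19 against whole marrow and 0.05 against Lin- marrow, beside -0.02 and 0.01 over all genes.

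Clca3a2, a close copy of Clca3a1 and its neighbour, had log2 intensities of 7.80, 7.73 and 7.59 in the leukemias, 5.69, 6.86 and 6.52 in the Lin- pools and 4.42, 4.77 and 4.37 in whole marrow, the same staircase without overlap. It rose by 3.19 ± 0.26 against whole marrow (limma adjusted p = 0.000463) and by 1.35 ± 0.26 against Lin- marrow (limma adjusted p = 0.0171). Clca3b rose by 0.59 ± 0.09 (limma adjusted p = 0.0022) and 0.40 ± 0.09 (limma adjusted p = 0.0253), near the array median, and did not pass between Lin- and whole marrow (0.18, limma adjusted p = 0.138). The Clca3b call against Lin- marrow was lost without leukemia 2 or 3, without Lin- pool 1 or 2, with 75th percentile centring and with only the groups compared (0.33 to 0.46). Clca1, Clca2, Clca4a and Clca4b did not pass in either comparison. Their group means ran from 13.8 to 25.8, below the median of 33.4, where a change can be missed. Probe sequences were not used here, and shared signal between the Clca3a1 and Clca3a2 probe sets cannot be told apart from signal of each gene.

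Hbq1a, whose upstream sequence differs from that of Hbq1b at 11 bases, had log2 intensities of 4.13, 4.93 and 4.51 in the leukemias, 3.92, 4.19 and 4.03 in the Lin- pools and 3.94, 4.25 and 4.05 in whole marrow. It stayed below the array median of 5.06 throughout, with differences of 0.44 ± 0.19 from whole marrow (limma adjusted p = 0.128) and 0.47 ± 0.19 from Lin- marrow (limma adjusted p = 0.171). Shared signal between the Hbq1b and Hbq1a probe sets could not be examined either. The other measured globins, Hba-x, Hbb-y, Hbb-bh1 and Hbb-bh2, are embryonic genes or their kin. Their group means ran from 17.1 to 29.0, below the median of 33.4, where a change can be missed. Of 5 members of the globin list 0 passed in either comparison. Without leukemia 1, Hbq1a passed against whole marrow (0.64) and against Lin- marrow (0.67). The adult alpha and beta globins were not analysed here.

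Cd59b, the second mouse CD59 gene and the neighbour of Cd59a, had log2 intensities of 6.15, 6.74 and 6.11 in the leukemias, 6.39, 6.89 and 6.41 in the Lin- pools and 5.24, 5.16 and 5.83 in whole marrow. It rose against whole marrow (0.92 ± 0.24, limma adjusted p = 0.0216), a call that did not hold when leukemia 2 or whole marrow array 1 or 2 was dropped (0.72 to 0.84). Against Lin- marrow it did not pass (-0.23 ± 0.24, limma adjusted p = 0.676). Among 10 complement regulators Cd59b was the 1 that rose against whole marrow, a count of 2 without leukemia 3, where Cd55b passed (0.68), and Clu, which encodes clusterin, fell by 0.60 ± 0.17 against whole marrow (limma adjusted p = 0.0301) and by 2.13 ± 0.17 against Lin- marrow (limma adjusted p = 0.000566). The Clu call against whole marrow did not hold when leukemia 1 or 2 or any 1 whole marrow array was dropped (-0.65 to -0.53). Against Lin- marrow 1 regulator rose without leukemia 2 or 3. The shares of all genes were 14.6% higher and 9.93% lower against whole marrow, and 2.95% and 5.74% against Lin- marrow.

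**Figure D4:**
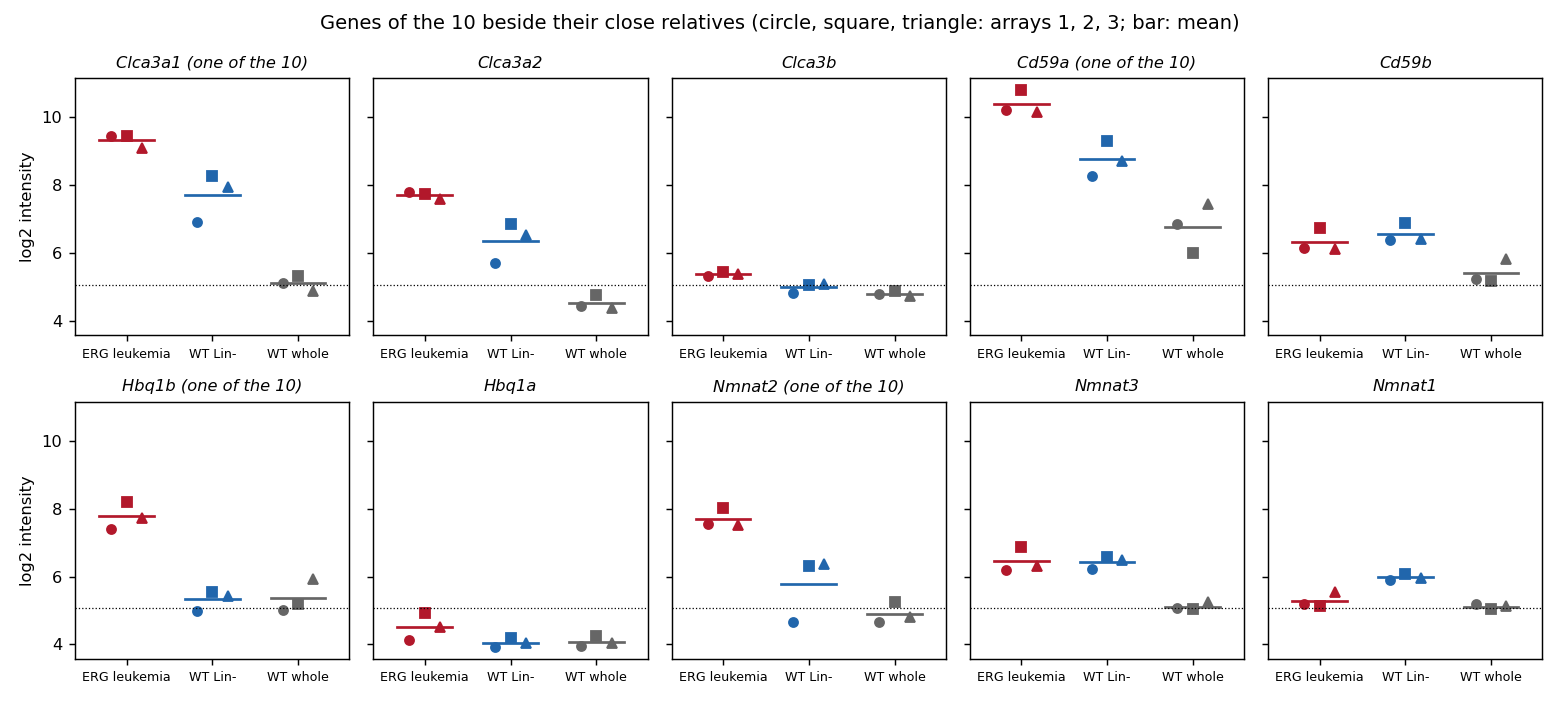
Log2 intensity of Clca3a1, Cd59a, Hbq1b and Nmnat2 beside close relatives, on each array of ERG leukemia, wild type Lin- and wild type whole marrow. Clca3a2 repeats the staircase of Clca3a1, whereas Cd59b and Nmnat3 have leukemia and Lin- arrays at overlapping levels. Levels of different probe sets are not comparable, and the dotted line is the median of all probe sets.

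Of the enzymes that share the Nmnat2 reaction, Nmnat3 rose against whole marrow (1.34 ± 0.17, limma adjusted p = 0.00148) and not against Lin- marrow (0.02 ± 0.17, limma adjusted p = 0.971). Nmnat1, the nuclear enzyme, fell against Lin- marrow (-0.69 ± 0.12, limma adjusted p = 0.0106). Across 21 genes of NAD synthesis and use, 2 rose and 3 fell against whole marrow, and 1 rose and 2 fell against Lin- marrow. Of all genes 14.6% were higher and 9.93% lower against whole marrow, and 2.95% and 5.74% against Lin- marrow. No change of the list as a whole is read from these counts. Bst1, an NAD-cleaving surface enzyme of stroma and myeloid cells, went both ways, with -2.02 ± 0.41 against whole marrow (limma adjusted p = 0.00807) and 2.77 ± 0.41 against Lin- marrow (limma adjusted p = 0.00585). Nadk2, the mitochondrial NAD kinase gene, rose by 0.97 ± 0.15 against whole marrow, where Nadk fell by 0.94 ± 0.15 and Nampt, the salvage enzyme gene, fell by 0.75 ± 0.18 (limma adjusted p = 0.00256, 0.00301 and 0.0175). Parp1, a consumer of NAD in DNA repair, fell by 0.64 ± 0.14 against Lin- marrow (limma adjusted p = 0.031). The Nampt call was lost without whole marrow array 1 (-0.63), and the count that fell against whole marrow was 5 without leukemia 1. The Parp1 call did not hold when leukemia 2 or 3, Lin- pool 1 or 2 or whole marrow array 1 was dropped (-0.66 to -0.53), and 2 NAD genes rose against Lin- marrow without leukemia 2.

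Around Cd36, 4 of 19 genes of fatty acid uptake and activation rose and 2 fell against whole marrow, and 2 rose and 3 fell against Lin- marrow. The shares of all genes were 14.6% higher and 9.93% lower, and 2.95% and 5.74%, in the same order. From 19 genes no excess over them is read. Pparg, the nuclear receptor that switches on Cd36 in macrophages and fat cells, had log2 intensities of 8.20, 6.03 and 7.59 in the leukemias, 5.09, 5.02 and 4.92 in the Lin- pools and 5.84, 5.80 and 5.56 in whole marrow. Its lowest leukemia was leukemia 2, and its part in the Cd36 signal was not tested. Pparg rose by 1.54 ± 0.45 against whole marrow (limma adjusted p = 0.0359) and by 2.26 ± 0.45 against Lin- marrow (limma adjusted p = 0.0187). Fabp7, a fatty acid binding protein gene, split the leukemias the same way, at 6.45, 5.39 and 6.27, and rose by 1.09 ± 0.27 and 1.41 ± 0.27 (limma adjusted p = 0.0195 and 0.0169). Against whole marrow the Pparg call was lost in 9 alternatives (1.08 to 1.60) and the Fabp7 call in 5 (0.88 to 1.09). Against Lin- marrow they were lost in 5 (2.10 to 2.30) and 4 (1.30 to 1.44).

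Acsl5, which activates fatty acids, rose against whole marrow (1.08 ± 0.10, limma adjusted p = 0.000538), as did Got2 (0.36 ± 0.10, limma adjusted p = 0.025). The transporter gene Slc27a4 fell against whole marrow (-1.86 ± 0.27, limma adjusted p = 0.00213), and Slc27a1 fell against whole marrow (-0.65 ± 0.16, limma adjusted p = 0.0211) and against Lin- marrow (-0.65 ± 0.16, limma adjusted p = 0.0453). Acsl6 and Acsl4 fell against Lin- marrow (-1.34 ± 0.14 and -0.51 ± 0.13, limma adjusted p = 0.00159 and 0.0462). The Got2 call was lost in 7 alternatives (0.23 to 0.36), the Acsl4 call in 11 (-0.55 to -0.37), and the Slc27a1 calls in 3 against whole marrow (-0.61 to -0.54) and 8 against Lin- marrow (-0.65 to -0.52). Without leukemia 3 or whole marrow array 1 or 3, 1 gene of this list rose against whole marrow, and without leukemia 1 it was 2; 1 fell without leukemia 2 or 3 or whole marrow array 3. Without leukemia 3 or any 1 Lin- pool 0 rose against Lin- marrow, and 1 fell against Lin- marrow without leukemia 2 or 3, Lin- pool 1 or 3 or whole marrow array 1 or 2.

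Of 19 genes of collagen hydroxylation, 2 rose and 0 fell against whole marrow, where 14.6% of all genes were higher and 9.93% lower. Against Lin- marrow 0 rose and 1 fell, where 2.95% of all genes were higher and 5.74% lower. P3h1 rose by 0.31 ± 0.07 against whole marrow (limma adjusted p = 0.014). Crtap, its partner in the endoplasmic reticulum, rose by 0.80 ± 0.14 against whole marrow (limma adjusted p = 0.00404) and fell by 0.71 ± 0.14 against Lin- marrow (limma adjusted p = 0.0166), a call lost without Lin- pool 1 or 2 (-0.72 and -0.67). Without whole marrow array 1, 1 gene of the list fell against whole marrow, and the P3h1 call was lost with 75th percentile centring (0.21). All 6 type IV collagen genes, the basement membrane substrates, lay below the array median on every array, and 0 of them passed in either comparison.

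Among 8 other BEACH domain genes, 2 rose and 3 fell against whole marrow, and 2 rose and 0 fell against Lin- marrow. Over all genes 14.6% were higher and 9.93% lower against whole marrow, and 2.95% and 5.74% against Lin- marrow. From 8 genes no excess over these shares is read. Wdfy3, which serves in selective autophagy, rose by 0.43 ± 0.13 and 0.83 ± 0.13 (limma adjusted p = 0.0449 and 0.00821), and Lyst, a regulator of lysosome size, fell by 1.32 ± 0.18 against whole marrow and rose by 1.16 ± 0.18 against Lin- marrow (limma adjusted p = 0.00184 and 0.00831). Nbeal2, needed for platelet and neutrophil granules, fell by 1.13 ± 0.19 and Wdfy4 by 1.80 ± 0.36 against whole marrow (limma adjusted p = 0.00403 and 0.00752). Wdr81 rose by 0.80 ± 0.22 against whole marrow (limma adjusted p = 0.0301). The 2 rises against whole marrow were 0 without leukemia 1 or 2 or whole marrow array 1, and 1 without Lin- pool 3 or whole marrow array 2 or 3, while 1 gene fell against Lin- marrow without whole marrow array 2 or 3. Of the remaining relatives, Ndrg3 (1.22 ± 0.16) and Nrip1 (0.97 ± 0.14) rose and Scarb2 fell by 0.90 ± 0.16 against whole marrow (limma adjusted p = 0.00162, 0.00209 and 0.00509), and Plek, the pleckstrin of platelets and leukocytes, did not pass.

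The measured genes on either side of each of the 10 on its chromosome, 20 genes in RefSeq order, were a further view of the loci, taken up after the data had been examined. Against whole marrow 2 rose, Cd59b and Clca3a2, and 3 fell, Atp6v1d, Cldn1 and Arpc5. Against Lin- marrow 3 rose, Tmem9b, Cldn1 and Clca3a2, and 0 fell. Of all genes 14.6% were higher and 9.93% lower against whole marrow, and 2.95% and 5.74% against Lin- marrow. From 20 genes no excess over these shares is read. The rises against whole marrow were 1 without leukemia 2 or whole marrow array 1. Cldn1, a tight junction gene beside P3h2, fell by 1.78 against whole marrow and rose by 1.82 against Lin- marrow (limma adjusted p = 0.0125 and 0.0277), whereas P3h2 was higher in leukemia than in both. The Cldn1 rise was not called without Lin- pool 2 or 3 (1.69 and 1.73), nor the Arpc5 fall without whole marrow array 1 (-0.51), and 2 neighbours rose against Lin- marrow without Lin- pool 3. Clca3a2 was the 1 neighbour that rose against both references.

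Within a group, the 10 genes did not single out the same array. Leukemia 2 was highest for 7 of them, leukemia 1 for Cd36, Nbea and Clca3a1 and leukemia 3 for 0, where 42.9%, 30.3% and 26.9% of all genes were highest in leukemias 2, 1 and 3. Of the Lin- pools, pool 2 was highest for 6 genes, pool 3 for 4 and pool 1 for 0, where the shares of all genes were 43.0%, 24.5% and 32.6%. Whole marrow array 3 was highest for Cd36, Hbq1b and Cd59a, and array 2 for the other 7, 5 of which had whole marrow means below the array median; of all genes 25.3% were highest in array 3 and 47.9% in array 2.

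Erythroid markers moved with part of this pattern. Of 20 measured erythroid markers, 18 were highest in leukemia 2, 19 in Lin- pool 2 and 19 in whole marrow array 3. Their summed intensity ran from 13939 to 21379 in the leukemias, from 13774 to 17183 in the Lin- pools and from 3994 to 9398 in whole marrow. Car1, the brightest of them, weighs most in these sums, with mean intensities of 5868.3, 5465.9 and 2201.5 in the same order. The sums therefore say little about the dimmer markers. Between groups, 16 of 20 rose and 0 fell in leukemia against whole marrow, with a median of 1.71. Of all genes 14.6% were higher and 9.93% lower there. In Lin- against whole marrow 13 of 20 rose and 0 fell, with a median of 1.27, where 21.7% of all genes were higher and 13.0% lower. With 1 array left out, from 10 to 16 rose. In leukemia against Lin- marrow only Nfe2 passed (0.82 ± 0.16, limma adjusted p = 0.0164) and 0 fell, with a median of 0.22, where 2.95% of all genes were higher and 5.74% lower. There 3 rose without leukemia 1 or whole marrow array 2 or 3. Differences from Lin- marrow ran from -0.30 ± 0.45 in Gata1 to 1.97 ± 0.53 in Alas2 (limma adjusted p = 0.793 and 0.0546). Tmod1 (1.60 ± 0.54) and Epb42 (1.33 ± 0.45) did not pass either (limma adjusted p = 0.112 and 0.11). Alas2 ranked 21st by the smaller of the leukemia differences, among the 13 other genes at or above the lowest of the 10. The 10 genes departed from their group mean by 0.55 in leukemia 2 and 0.43 in Lin- pool 2, and the erythroid markers by 0.44 and 0.27. In leukemia 3, where erythroid markers stood 0.10 above their group mean, the 10 genes stood 0.32 below theirs, a value to which Nbea contributes. The part of red cell precursors in the signal of the 10 genes was not tested.

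**Figure D5:**
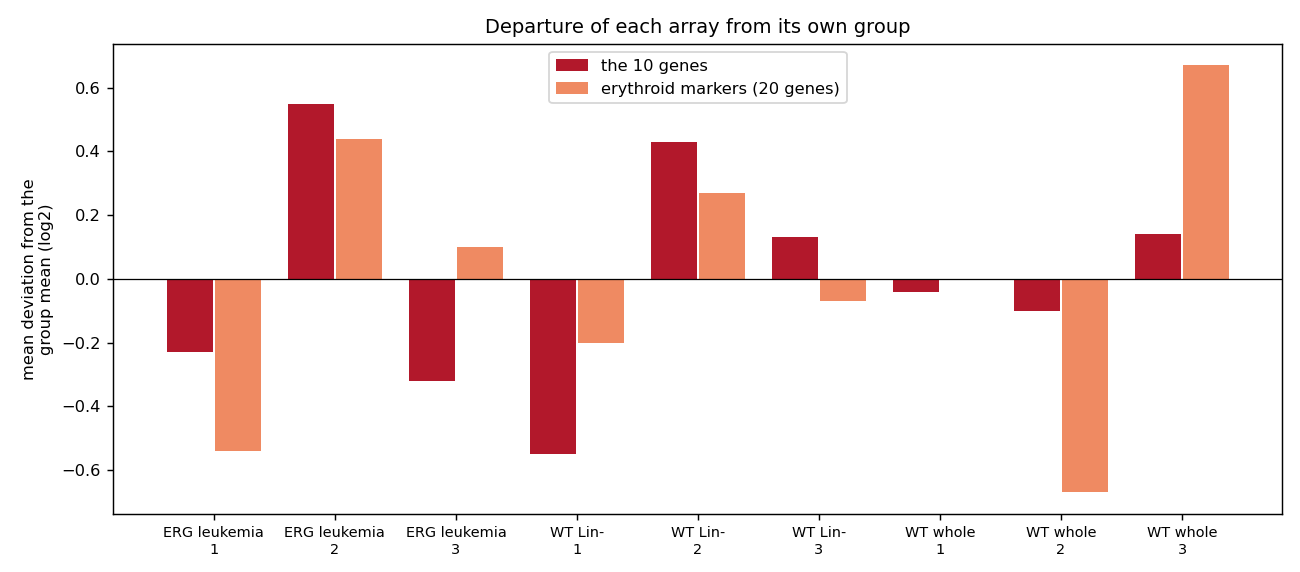
Mean departure of each array from its own group mean on the log2 scale, for the 10 genes (dark red) and 20 erythroid markers (orange). Both stand above their group mean in leukemia 2 (0.55 and 0.44) and Lin- pool 2 (0.43 and 0.27). In whole marrow array 3 the means are 0.14 and 0.67, but the median of the 10 genes is -0.01, and the means differ in sign in leukemia 3 and Lin- pool 3.

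The genes differed in how they spread among replicates. The median SD of the 10 genes was 0.44 in the leukemias, 0.40 in the Lin- pools and 0.25 in whole marrow, against medians of 0.127, 0.101 and 0.127 over all genes. Nbea, P3h2, Ndrg2 and Plek2 spread most among the leukemias, with SDs of 1.26, 1.14, 0.95 and 0.89 (n = 3 each). Plek2 and Ndrg2 had the profiles most alike of any pair of the 10, at a root mean square distance of 0.33 between their log2 values, each centred on its mean over the 9 arrays.

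By the same measure, the genes outside the 10 nearest to their mean profile were Slc6a20a (0.39), Pcdh7 (0.44), Cap2 (0.45), Cacna1c (0.48) and Ccdc92 (0.48), where the median gene stood at 1.39. That profile is shaped mostly by the leukemia excess that chose the 10 genes, so genes with a like excess lie near it by construction. Ranked by the smaller of the leukemia differences, these genes came from 20th (Cap2) to 36th (Pcdh7). The distances here and below are a description only. Slc6a20a, an amino acid transporter gene, had mean intensities of 672.1 in leukemia, 227.3 in Lin- marrow and 91.1 in whole marrow. Cap2, which encodes an actin-binding protein, was also the nearest gene to Ndrg2 (0.44). Tjp1, a tight junction gene, was nearest to Clca3a1 (0.29), the closest match of any of the 10, with mean intensities of 314.3, 109.8 and 20.6 in leukemia, Lin- and whole marrow. Car8, an inactive relative of the carbonic anhydrases, was nearest to Hbq1b (0.42), Bex4 to Plek2 (0.52), Pcdh7 to Nmnat2 (0.37) and Slc6a20a to Cd59a (0.37). Ddit4, a stress-induced inhibitor of mTOR signalling, was nearest to Nrip3 (0.63), Ppm1e to Cd36 (0.57), Ecm1 to P3h2 (0.48) and Hey2 to Nbea (0.48).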

How the data were processed

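RNA of 9 bone marrow samples was hybridised to 9 Affymetrix arrays of 28853 probe sets. The authors deposited linear intensity values made with RMA in Partek, per the submitters' processing notes; for versions and a genome build, the sources used here give none. The values were log2-transformed without further normalization, whereas log2 values had been assumed in the design. Probe sets were named from the platform annotation with symbols updated by Entrez identifier (RefSeq, GRCm38.p6). The 21789 with 1 symbol entered, and of several for a gene the brightest on average was kept, which left 19938 genes. Dim genes stayed in: 44.8% of genes had all 3 group means below the median of 33.4.

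Samples were grouped by their titles, with 3 arrays per group; leukemias were numbered in accession order, and the titles of leukemias 1 and 2 differ by a final digit. All comparisons came from 1 model of the 9 arrays in limma 3.58.1 (R 4.3.3; lmFit, contrasts.fit, eBayes; 6 residual and 2.62 prior degrees of freedom), tested two-sided and adjusted by Benjamini-Hochberg over all genes. Whole marrow and leukemia arrays stand for 1 mouse each and Lin- arrays for 3, yet share 1 spread per gene. The fit was tested on simulated data. The titles of the wild type groups share numbers, but whole marrow and Lin- arrays come from different mice, so the numbers do not pair the samples. Deviations of same-numbered arrays correlated at 0.312, -0.009 and -0.009, values that cannot by themselves settle a pairing. The 10 genes and the gene lists were chosen with earlier results of these data known. Named were all 10 genes, up to 4 called genes per list and leukemia comparison with the largest change, the 5 highest genes outside the 10 and the nearest genes by profile. Erg, Nfe2, Nrip1, Scarb2, Got2, Nampt, Hbq1a and the chromosomal neighbours were named after their values were seen. So were the markers Alas2, Tmod1, Epb42, Gata1, Car1, Ppbp, Gp5, Eng, Pecam1, Prox1, Flt4, Lyve1 and Fabp4. Of 108 listed related genes 96 were measured, and of 132 markers 116. Upstream motifs were searched in RefSeq windows. Alternatives were other scalings, dim genes left out, the mean of probe sets, an eBayes trend, only the groups compared, each array left out and the replicate block. Python 3.11.15 and matplotlib 3.10.9 made the figures.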

Additional observations from a re-analysis of the deposited data

How the results depend on the processing

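All 20 leukemia differences of the 10 genes kept their sign under every alternative run and moved by less than the spread between replicates. With 3 arrays per group and every leukemia array above every wild type array, leaving out an array could not have given another outcome. Apart from the other scalings, the remaining alternatives leave these differences unchanged by construction, so nothing is read from them. Among the 10 wild type differences of these genes, P3h2 lost its call in 9 of 17 alternatives, and Nbea and Nmnat2 gained one in 2 and 1. The count higher in Lin- than in whole marrow was 3, from 2 to 3 with 1 array left out, 3 with the replicate block and 4 without it on the wild type arrays alone.

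Of the 96 related genes 15 were higher and 10 lower in leukemia than in whole marrow, 7 and 7 against Lin- marrow, and 17 and 11 in Lin- against whole marrow. The shares of all genes were 14.6% and 9.93%, 2.95% and 5.74%, and 21.7% and 13.0% in the same order. No result about the related genes as a whole is read from these counts. With 1 array left out, the leukemia counts ran from 9 to 17 higher and 8 to 13 lower against whole marrow, and from 4 to 10 higher and 3 to 7 lower against Lin- marrow. The low of 9 came without whole marrow array 1. The counts of 4 higher came without Lin- pool 1 or 2, and those lower were 4 without leukemia 2, 3 without Lin- pool 1 and 4 without Lin- pool 2 or whole marrow array 1. The count lower in Lin- against whole marrow ran from 7, without Lin- pool 2, to 15, and was 17 with only the 2 groups compared and on the wild type arrays with or without the replicate block. With 75th percentile centring 13 related genes were higher in leukemia than in Lin- marrow, the cause of which was not tested, and the median of all genes stood at -0.125 against whole marrow and 0.062 against Lin- marrow, beside -0.022 and 0.007. That centring gave 12 higher and 13 lower of the related genes against whole marrow, and 13 and 16 in Lin- against whole marrow; cyclic loess gave 13 and 12, and 13 and 15. Against Lin- marrow the splits were 13 and 7 with the centring and 9 and 5 with loess. Of 5120 values for single related and neighbouring genes under alternatives, 152 lost and 127 gained a call and 0 reversed. Precision is limited by 3 arrays per group and by wild type signal of several of the 10 genes below the array median.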
